A study of Mus musculus with 6 samples.

Results

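Vmn2r90 to Vmn2r99 are 10 mouse genes of the V2R class of vomeronasal receptors. They were taken by number from the platform's gene symbols, using probe sets that name 1 gene, and all 10 had exactly 1 such probe set among the 22180 genes tested. No probe set naming several genes included any of them. The arrays measured RNA of whole vomeronasal organs, the paired chemosensory tubes of the nasal septum, from mice at postnatal day 17. The AP-2e null group and the wild-type group had 3 samples each, titled as biological replicates and run on 1 array each. AP-2e is a transcription factor encoded by Tfap2e, and the series asked which genes differ when it is absent. The sources used here do not give the construction of the null allele, the strain, the sex or the number of animals in a sample. P-values therefore measure the spread between these samples, and whether that is spread between single animals or between pools is unknown.

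V2R receptors are G protein-coupled receptors with a large extracellular ligand-binding part, and they detect peptide and protein cues from other animals. They are made by the basal class of vomeronasal sensory neurons, which signal through the G protein subunit Gnao1 and the channel Trpc2, whereas apical neurons use V1R receptors and Gnai2. A basal neuron makes few V2R types, commonly 1 specific receptor beside a broadly made family C co-receptor, so each specific V2R gene is active in a small share of the neurons. Vmn2r90 to Vmn2r99 each code for a receptor of the specific kind, outside family C.

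Values are log2 signals, and the lower quartile of all probe sets over the 6 arrays was 3.62, a mark of dim signal rather than a detection limit. The arrays' medians lay between 4.997 and 5.079, and across probe sets, which are not independent replicates, r between arrays was 0.971 to 0.985. Precision is limited by the small number of arrays. Tfap2e had 5.97, 6.09 and 6.04 on the AP-2e null arrays, against 6.46, 6.76 and 6.92 on the wild-type arrays. Its groups did not overlap, but its difference of -0.68 (SE 0.13) had an adjusted p of 0.431 in limma. The position of its probes against the altered stretch of the gene is unknown here. Markers of mature vomeronasal neurons were present on all arrays, with the mean of 8 genes, Omp and Trpc2 among them, between 9.09 and 9.16 in AP-2e null and between 9.15 and 9.26 in wild-type organs. Lists for main olfactory neurons (median difference 0.24, 4 of 5 genes measured), multiciliated cells (-0.30, 3 of 5 measured), cartilage (0.50), skeletal muscle (-0.39) and neutrophils (0.56) had 0 genes past the threshold in limma and 0 at an unadjusted p under 0.05. The cartilage mean was 8.58 on AP-2e null replicate 2, against 6.33 and 6.53 on the other AP-2e null arrays and 6.55 to 6.67 on the wild-type arrays.

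All 10 receptor genes had lower mean signal in AP-2e null organs, and 5 of them fell past the threshold, an adjusted p under 0.05 over the 22180 genes in limma. The 5 were Vmn2r98, Vmn2r95, Vmn2r96, Vmn2r99 and Vmn2r92, with falls between 26.9-fold and 2.29-fold. Among all genes tested 0.216% were called lower, and 50.6% had a lower mean. The groups did not overlap for 9 of the 10 members, against 3.64% of all genes with every AP-2e null array under every wild-type array. The median difference, AP-2e null minus wild-type, was -2.72 on the log2 scale, and over all genes it was close to 0. No member rose, and 0.00902% of all genes did. At an unadjusted p under 0.05, 9 members were lower, against 2.49% of all genes. In RNA of a whole organ, fewer neurons that use a receptor and less receptor RNA per neuron cannot be told apart.

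**Figure D1:**
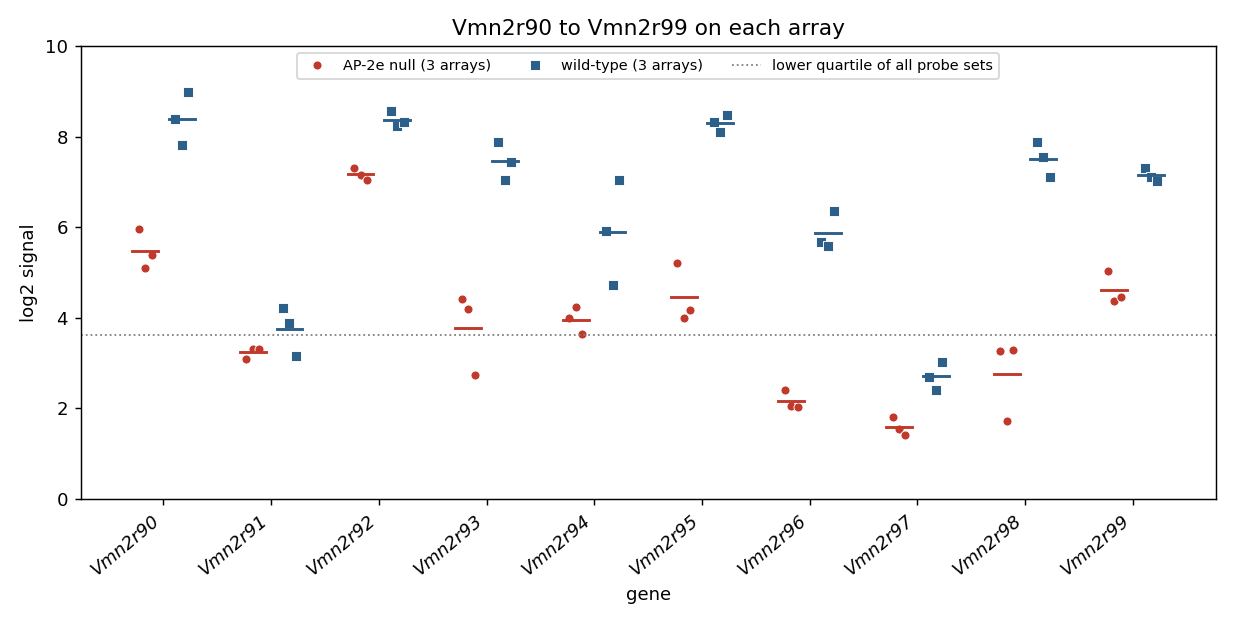
Log2 signal (vertical axis) of each of the 10 genes (horizontal axis), with 3 AP-2e null arrays as red circles left of 3 wild-type arrays as blue squares, group means as bars and the lower quartile of all probe sets, 3.62, as a dotted line. The groups are apart for every gene except Vmn2r91, and the AP-2e null means of Vmn2r91, Vmn2r96, Vmn2r97 and Vmn2r98 lie under the dotted line.

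Vmn2r98 had the largest difference of the 10. Its log2 signal was 3.27, 1.73 and 3.28 on the AP-2e null arrays, against 7.88, 7.55 and 7.10 on the wild-type arrays. The lowest wild-type array stood 3.82 above the highest AP-2e null array, and AP-2e null replicate 2 was well under the other AP-2e null arrays. The difference was -4.75 (SE 0.47, 95% interval -5.93 to -3.57), which is 26.9-fold lower (adjusted p = 0.0396 in limma). Its AP-2e null mean, 2.76 ± 0.89 (SD, n = 3), lay under the lower quartile of all probe sets, so the true fold may be larger than the one measured.

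Vmn2r95 and Vmn2r96, neighbours on the chromosome, fell by similar amounts. Vmn2r95 had 5.20, 4.00 and 4.16 in AP-2e null organs, against 8.31, 8.10 and 8.47 in wild-type organs. AP-2e null replicate 1 was the highest of its group and still 2.90 under the lowest wild-type array, and the difference was -3.84 (SE 0.33), 14.3-fold lower, with an adjusted p of 0.0221 in limma. Vmn2r96 had 2.41, 2.06 and 2.04 on the AP-2e null arrays, against 5.67, 5.58 and 6.35 on the wild-type arrays. The AP-2e null arrays lay close together in the dim range, and wild-type replicate 3 was the highest. The difference of Vmn2r96 was -3.70 (SE 0.23), 13.0-fold lower, with an adjusted p of 0.00764 in limma, the smallest of the 10.

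Vmn2r99 had 5.03, 4.38 and 4.45 in AP-2e null organs, against 7.31, 7.10 and 7.01 in wild-type organs. The groups were 1.98 apart at their nearest arrays, and the wild-type arrays lay closer together than the AP-2e null arrays, with a difference of -2.52 (SE 0.19), 5.74-fold lower, and an adjusted p of 0.0150 in limma. Its means were 4.62 ± 0.36 in AP-2e null and 7.14 ± 0.15 in wild-type organs (SD, n = 3 each).

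Vmn2r92 had the smallest difference among those that passed. Its signal was 7.31, 7.16 and 7.05 on the AP-2e null arrays, against 8.56, 8.23 and 8.33 on the wild-type arrays. The groups were 0.92 apart at their nearest arrays. Its difference was -1.20 (SE 0.11, 95% interval -1.48 to -0.92), 2.29-fold lower, and its adjusted p of 0.0314 in limma rested on small spreads, 0.13 in AP-2e null and 0.17 in wild-type organs (SD, n = 3 each). Its means were 7.17 in AP-2e null and 8.37 in wild-type organs.

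The other 5 genes did not pass. For 2 of them the differences were large and the spread was too. Vmn2r93 had 4.41, 4.20 and 2.73 on the AP-2e null arrays, against 7.89, 7.03 and 7.44 on the wild-type arrays. Here the groups were 2.62 apart, yet AP-2e null replicate 3 stood far under the rest of its group, and the difference of -3.68 (SE 0.50) had an adjusted p of 0.141 in limma. Vmn2r90 had 5.96, 5.10 and 5.38 in AP-2e null organs, against 8.38, 7.81 and 8.99 in wild-type organs. Its groups were 1.85 apart, and the difference was -2.92 (SE 0.36, adjusted p = 0.0953 in limma).

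Vmn2r94 varied most within a genotype. Its signal was 3.99, 4.23 and 3.63 on the AP-2e null arrays, against 5.92, 4.72 and 7.04 on the wild-type arrays. The wild-type arrays spanned 2.32, the widest range of any member in either genotype, and the groups were 0.49 apart at their nearest arrays. Its difference of -1.94 (SE 0.58) had an adjusted p of 0.873 in limma.

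Vmn2r91 and Vmn2r97 had signals near or under the lower quartile of all probe sets. Vmn2r97 had 1.80, 1.54 and 1.42 on the AP-2e null arrays, against 2.69, 2.41 and 3.03 on the wild-type arrays. Every value was under that quartile, although the groups did not overlap, and the difference of -1.12 (SE 0.18, adjusted p = 0.303 in limma) may be understated at such signals. Vmn2r91 had 3.08, 3.32 and 3.32 in AP-2e null organs, against 4.21, 3.89 and 3.16 in wild-type organs. It was the member whose groups overlapped, because wild-type replicate 3 was under 2 of the AP-2e null arrays, and its difference was -0.51 (SE 0.27, 95% interval -1.19 to 0.17, adjusted p = 0.873 in limma). Probes of near-identical receptor genes can bind related transcripts, so the value of any single member is uncertain.

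Whether members changed by unequal amounts was asked pair by pair. For each of the 45 pairs, the change of one gene minus the change of the other was tested by exact 2-sided permutation of the arrays. In 29 pairs the p was 0.1, the smallest the design allows, and 0 pairs passed after adjustment over the 45, where the smallest adjusted p was 0.155. The largest gap was between Vmn2r91 and Vmn2r98, whose changes differed by 4.24 (SE 0.57). Near the other end, the changes of Vmn2r93 and Vmn2r96 differed by 0.02 (SE 0.57, exact p = 1.0, adjusted 1.0), an SE that leaves room for a sizeable difference.

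The highest and lowest array within each genotype were tallied over the members. AP-2e null replicate 1 was the highest of its group for 7 of the 10 genes, while the lowest was replicate 1, 2 or 3 for 1, 4 and 5 genes. Wild-type replicate 2 was the lowest of its group for 7 genes, and the highest was replicate 1 for 5 and replicate 3 for 5. These counts were not tested. The mean over the 10 genes was 4.25, 3.77 and 3.74 on the AP-2e null arrays, against 6.68, 6.24 and 6.69 on the wild-type arrays, so the mean difference of -2.62 was several times the span within either genotype. The basal neuron markers Gnao1, Calr4, Kirrel3, Robo2 and Gng8 had a list mean between 8.95 and 9.05 in AP-2e null organs, against 9.47 to 9.70 in wild-type organs. Of these 5 genes 4 were lower, with a median difference of -0.50, and 0 passed in limma, where 4 had an unadjusted p under 0.05. Their part in the difference of the receptor genes was not tested. The 7 apical markers had a median difference of 0.08, with 0 past the threshold in limma and 1 lower and 2 higher at an unadjusted p under 0.05. The 8 markers shared by mature neurons had a median of -0.07, again with 0 past the threshold, and 1 lower and 1 higher at an unadjusted p under 0.05.

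**Figure D2:**
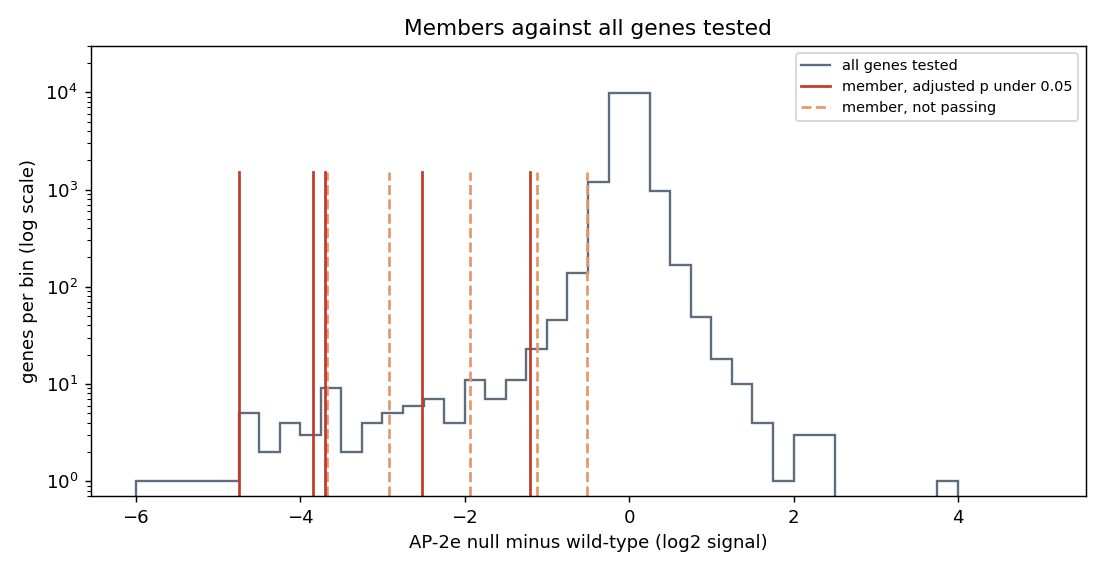
Number of genes per bin of the genotype difference (outline, logarithmic vertical axis) against AP-2e null minus wild-type log2 signal (horizontal axis), with the 10 members as vertical lines, solid for the 5 that passed and dashed for the 5 that did not. The lines run between -4.75 and -0.51, left of the peak of all genes near 0.

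The 10 genes lie on chromosome 17 in the order Vmn2r90, Vmn2r91, Vmn2r92, Vmn2r94, Vmn2r93, Vmn2r95, Vmn2r96, Vmn2r97, Vmn2r98 and Vmn2r99, per a RefSeq gene table (assembly GRCm38.p6) used for gene order because no build is given for the arrays in the labels. That table lists 19 genes without a Vmn2r name between the first and the last member, here called genes of another kind. Some carry Gm names, whose family the table does not give, and these may include V2R copies. Of the 19, 6 were measured, and all 6 lie between Vmn2r90 and Vmn2r91. None passed in limma and 0 had an unadjusted p under 0.05, with differences between -0.26 and 0.74. The largest of these belonged to Fpr2, a formyl peptide receptor gene, with 5.94, 5.29 and 5.09 on the AP-2e null arrays, against 5.27, 5.18 and 3.67 on the wild-type arrays. The groups overlapped, and the difference was 0.74 (SE 0.49, adjusted p = 0.873 in limma). Spaca6, a gene of sperm and egg fusion, was next at 0.31 (SE 0.20, adjusted p = 0.873). Formyl peptide receptors are another receptor family of the vomeronasal organ, and the 4 measured of 7 listed had a median difference of 0.33 with 0 past the threshold in limma and 0 at an unadjusted p under 0.05. The 8 other V2R genes and V2R pseudogenes between members were not measured by a probe set naming 1 gene.

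**Figure D3:**
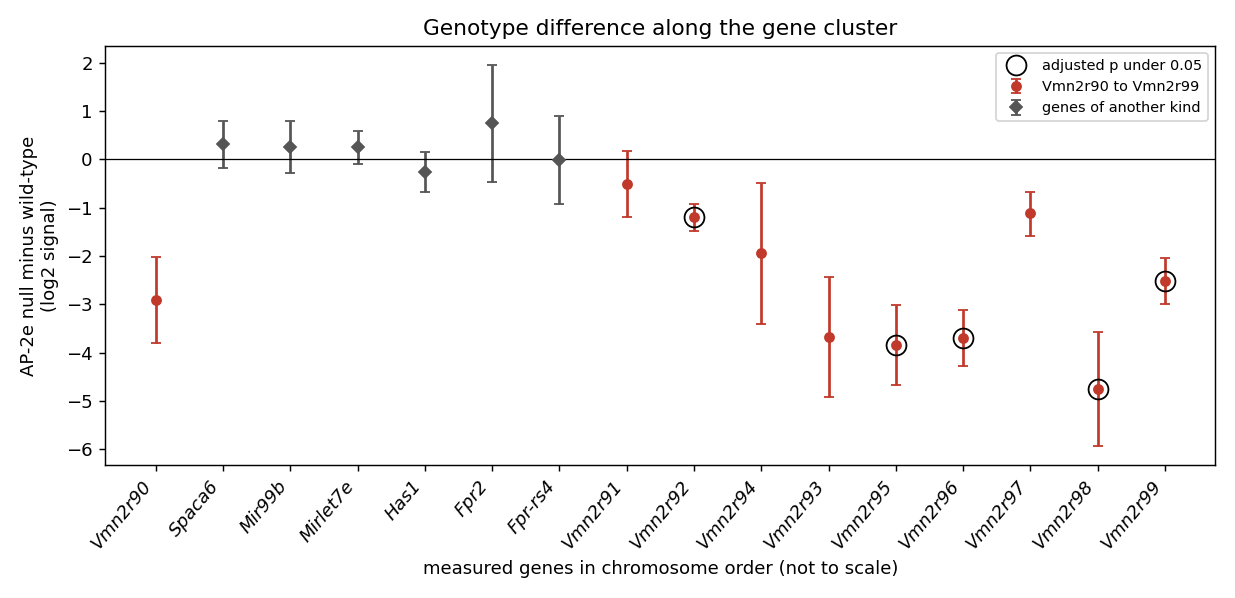
AP-2e null minus wild-type log2 signal (vertical axis, 95% intervals from limma as bars) of the measured genes in chromosome order from Vmn2r90 to Vmn2r99 (horizontal axis, not to scale), with members in red, the 6 genes of another kind in grey and rings around the 5 that passed. The grey points lie between -0.26 and 0.74, and the 10 red points between -4.75 and -0.51.

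Promoter windows of all 10 members, 250 bases before to 50 after the annotated gene start, were taken from RefSeq (GRCm38.p6). In 8 of them the annotated start is the letters ATG, so for these genes the window holds the 250 bases before the annotated coding sequence and its first 50 bases. Where transcription starts is not known from the table. The windows of Vmn2r94 and Vmn2r96 begin elsewhere in the gene model. The windows shown are the 6 that hold the letters TGAGTCA. They are those of Vmn2r92, Vmn2r95, Vmn2r98 and Vmn2r99, which fell, and of Vmn2r91 and Vmn2r97. The windows of Vmn2r96, which also fell, and of Vmn2r90, Vmn2r93 and Vmn2r94 lack TGAGTCA and are not shown. The windows of Vmn2r91 and Vmn2r97, genes of dim signal, are each nearly identical to that of a member whose difference was larger. Capitals mark the letters TGAGTCA, the AP-1 site, and ATGTACTGGACA, the 12-base run found in more member windows than any other.
Vmn2r91, chr17:18084807-18085106, + strand: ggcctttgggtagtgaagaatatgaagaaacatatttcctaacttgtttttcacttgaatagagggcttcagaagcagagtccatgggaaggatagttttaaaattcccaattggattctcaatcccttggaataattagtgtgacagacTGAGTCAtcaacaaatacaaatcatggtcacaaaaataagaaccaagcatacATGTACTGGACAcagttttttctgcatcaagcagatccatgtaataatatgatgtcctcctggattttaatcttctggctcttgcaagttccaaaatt
Vmn2r92, chr17:18151680-18151979, + strand: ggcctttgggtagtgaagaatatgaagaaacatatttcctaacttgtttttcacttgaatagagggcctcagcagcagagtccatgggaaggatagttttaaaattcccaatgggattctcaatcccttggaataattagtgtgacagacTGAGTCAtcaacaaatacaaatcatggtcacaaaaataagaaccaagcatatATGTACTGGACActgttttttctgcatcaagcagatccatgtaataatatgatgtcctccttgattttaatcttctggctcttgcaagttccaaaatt
Vmn2r95, chr17:18423854-18424153, + strand: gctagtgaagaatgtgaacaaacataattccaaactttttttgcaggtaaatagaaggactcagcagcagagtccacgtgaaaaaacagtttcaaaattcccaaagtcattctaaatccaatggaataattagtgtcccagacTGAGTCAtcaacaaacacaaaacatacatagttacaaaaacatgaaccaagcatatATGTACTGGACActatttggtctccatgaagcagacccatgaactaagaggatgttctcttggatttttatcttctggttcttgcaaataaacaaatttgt
Vmn2r97, chr17:18914072-18914371, + strand: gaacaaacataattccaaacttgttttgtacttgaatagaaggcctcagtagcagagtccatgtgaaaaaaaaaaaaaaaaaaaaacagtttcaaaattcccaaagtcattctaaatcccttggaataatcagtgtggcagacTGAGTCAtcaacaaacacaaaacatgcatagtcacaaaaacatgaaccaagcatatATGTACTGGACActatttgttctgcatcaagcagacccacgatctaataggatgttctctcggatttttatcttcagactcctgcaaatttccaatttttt
Vmn2r98, chr17:19053243-19053542, + strand: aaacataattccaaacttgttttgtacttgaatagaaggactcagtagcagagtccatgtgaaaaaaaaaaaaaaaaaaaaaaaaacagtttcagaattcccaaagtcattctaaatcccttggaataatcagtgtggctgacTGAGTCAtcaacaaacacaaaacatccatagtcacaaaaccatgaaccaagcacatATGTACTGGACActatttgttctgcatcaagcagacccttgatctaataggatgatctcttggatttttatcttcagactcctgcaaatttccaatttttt
Vmn2r99, chr17:19361885-19362184, + strand: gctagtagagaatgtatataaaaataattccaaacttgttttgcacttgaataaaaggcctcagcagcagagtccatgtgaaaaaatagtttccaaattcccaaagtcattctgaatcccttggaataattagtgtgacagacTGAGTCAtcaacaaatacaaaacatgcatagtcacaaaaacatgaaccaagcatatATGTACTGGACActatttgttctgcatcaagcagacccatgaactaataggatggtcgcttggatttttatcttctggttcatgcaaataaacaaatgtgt

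Searched on both strands, ATGTACTGGACA was in 7 of the 10 windows, all but those of Vmn2r90, Vmn2r93 and Vmn2r96, and in 0.0304% of 32851 promoter windows of mouse genes. It was in 10 windows in all, of which 9 were among the 117 of V2R genes, or 7.69%. Because the run was picked as the most shared in these same member windows, which resemble one another, its excess there follows from that choice. In the 6 windows printed above it began 48 or 51 bases before the annotated start. TGAGTCA was in these 6 of the 10 windows too, beginning 100 or 107 bases before the start, against 26.5% of V2R windows and 5.20% of all windows. That motif was chosen after the windows were seen, and the 6 windows resemble one another, so they are not 6 independent occurrences. Neither run overlaps the other. GCCNNNGGC, the palindrome that AP-2 proteins bind, was in 0 of the 10 windows, against 7.69% of V2R windows and 16.6% of all windows. With 1 more spacer base, GCCNNNNGGC was in 1 window, that of Vmn2r90, against 2.56% of V2R windows and 14.8% of all windows. The annotated start is ATG in 8 of the 10 member windows but in 5.83% of all windows. The shares over all windows are therefore not a like background for any of these motifs. A match is a description of these letters, and the lack of one says only that they are not in this window.

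Among the 8 windows whose annotated start is ATG, the most similar pairs were compared in their differences in signal. Vmn2r91 and Vmn2r92 shared 294 of 300 aligned bases, or 98.0%, and their differences were -0.51 and -1.20. Vmn2r97 and Vmn2r98 shared 286 of 296 aligned bases, or 96.6%, and their differences were -1.12 and -4.75. In each pair the member with the smaller difference was dim in wild-type organs. The wild-type means were 3.75 for Vmn2r91 beside 8.37 for Vmn2r92, and 2.71 for Vmn2r97 beside 7.51 for Vmn2r98. The differences of Vmn2r91 and Vmn2r97 may be understated at such signals, which was not tested. The change of Vmn2r97 minus that of Vmn2r98 was 3.63 (SE 0.62, exact permutation p = 0.1, adjusted 0.155), and that of Vmn2r91 minus that of Vmn2r92 was 0.68 (SE 0.31, exact permutation p = 0.1, adjusted 0.155). A p of 0.1 is the smallest the design allows, so neither pair could pass and the test cannot decide whether their responses were unequal. Vmn2r90, set apart on the chromosome by the genes of another kind, also had the least similar window, with 61.0% to 68.1% of aligned bases shared with the other 7 of these windows, whereas those 7 shared 77.4% to 98.0% among themselves. Its difference, -2.92, lay in the middle of the members.

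Most other V2R genes had lower means as well. Of the 99 other V2R genes measured, 92 had a lower mean in AP-2e null organs and 37 fell past the threshold, 37.4%, with a median difference of -1.75, beside 5 of the 10 members. No test of the difference between these lists was made. Vmn2r100 to Vmn2r109, which follow on the same chromosome, had 3 of 10 past the threshold, all lower, and a median of -1.83. Vmn2r110 to Vmn2r122 had 2 of 11 past it and a median of -0.36, with 3 higher means. The 7 family C co-receptors Vmn2r1 to Vmn2r7 had 4 past it and a median of -1.75, and Vmn2r8 to Vmn2r89 had 27 of 68 and a median of -1.88.

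The genes most like the 10 over the 6 arrays were sought as those with the smallest Euclidean distance to the members' mean profile, each gene's log2 signal less its own mean. The nearest 5 among the other genes tested were the V2R genes Vmn2r65 (distance 0.42), Vmn2r5 (0.58), Vmn2r20 (0.62), Vmn2r4 (0.65) and Vmn2r59 (0.68). Vmn2r5 and Vmn2r4 belong to family C. Vmn2r65 had 4.88, 4.38 and 4.06 on the AP-2e null arrays, against 7.47, 7.08 and 7.37 on the wild-type arrays. Its match to the members' mean, in size and in its high AP-2e null replicate 1 and low wild-type replicate 2, follows from how it was picked. All these profiles share the same 6 arrays.

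Most calls of single members were lost when an array was left out. Without AP-2e null replicate 1 the members past the threshold were 2, Vmn2r95 (-4.22, adjusted p = 0.00769 in limma) and Vmn2r99 (-2.73, adjusted p = 0.0125). Without AP-2e null replicate 2 only Vmn2r98 passed (-4.24, adjusted p = 0.0379), and without wild-type replicate 3 only Vmn2r96 did (-3.46, adjusted p = 0.0148). Without AP-2e null replicate 3, wild-type replicate 1 or wild-type replicate 2 there were 0 in limma, with 8, 8 and 9 members lower at an unadjusted p under 0.05, where 566, 523 and 655 of all 22180 genes were. Vmn2r92 passed in none of these 6 fits, where its adjusted p lay between 0.130 and 0.281. The differences moved little. They lay between -5.01 and -4.24 for Vmn2r98, between -4.22 and -3.62 for Vmn2r95, between -3.84 and -3.46 for Vmn2r96, between -2.73 and -2.40 for Vmn2r99 and between -1.27 and -1.11 for Vmn2r92. Among members that did not pass with all arrays, Vmn2r94 ranged from -2.53 to -1.37, and none passed in any fit with an array left out. No member changed sign.

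**Figure D4:**
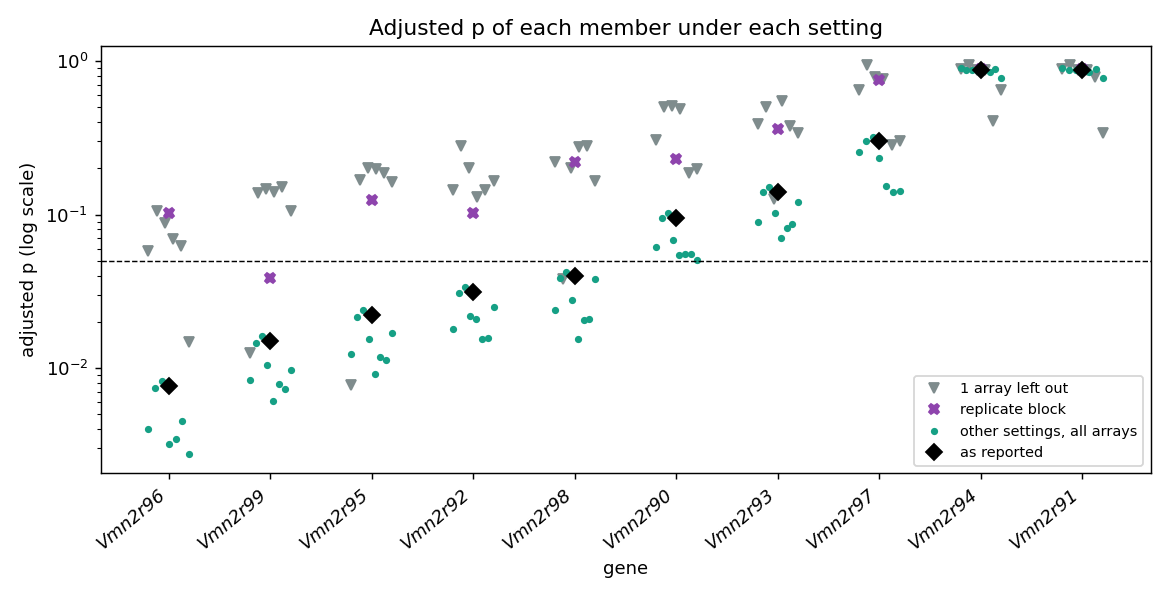
Adjusted p from limma (logarithmic vertical axis) for each member (horizontal axis, ordered by the reported value), as reported (black diamonds), with 1 array left out (grey triangles), with the replicate number as a block (purple crosses) and with the other settings on all arrays (green dots). The dashed line marks 0.05: the 5 members that passed stay under it in every green dot, and most grey triangles lie above it.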

How the data were processed

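RNA was measured on Affymetrix arrays, per the labels' protocols from 100 ng of total RNA by the WT Plus labelling protocol. Values in the deposited table are log2 signals, 1 per probe set and array, which the authors made with RMA and the Transcriptome Analysis Console per the submitters' processing notes. That the scale is log2 was read from the range of values. Their versions are not stated in the labels, and scanner files were not used here.

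Of 41345 probe sets, 23521 named 1 gene. The one with the highest mean per gene was kept, giving 22180 genes, with no filter on dim genes. Genes were fitted with limma 3.58.1 in R 4.3.3 (lmFit, eBayes, 2-sided, Benjamini-Hochberg over all genes, threshold 0.05), which shares information on spread across genes. Pairs of members were tested by exact permutation in scipy 1.17.1. The fit was tested on simulated data with 22180 genes and this design, where genes varied independently with limma's moderated spread. It recovered 83 of 100 genes changed by 1 and 95 of 100 changed by 2 on the log2 scale. False calls were 3 in all. More genes were changed there than the 48 lower and 2 higher genes called on the arrays, so recovery in the real data may be lower. Recovery of genes with the spread of the members was not tested separately. Of the 10 members 5 passed, while Vmn2r93 (-3.68, SE 0.50) and Vmn2r90 (-2.92, SE 0.36) were among the 5 that did not.

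Members, gene lists and tests were chosen with earlier results of these data known. Named genes were all members, Tfap2e, the 2 largest changes among genes of another kind between members, and the 5 nearest profiles. Motifs were chosen after the windows were seen. Alternatives were other moderation, probe set choice, a dim filter, normalization, array weights, a replicate block and leaving out each array.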

Additional observations from a re-analysis of the deposited data

How the results depend on the processing

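With all 6 arrays, each of the 5 members that fell kept its direction and its side of the threshold under trend and robust moderation, averaged probe sets, single probe sets, median centring, repeated quantile normalization, cyclic loess and array weights. Leaving out the dimmest 30% of genes removed Vmn2r91, Vmn2r96 and Vmn2r97, so 4 of the 5 remained to pass. Over all members and alternatives 117 of 147 values kept their side of the threshold, 30 lost it and 0 changed sign. All 30 belonged to the 5 members that fell, since the other 5 passed under no alternative. Vmn2r92 passed under 8 of 15 alternatives, Vmn2r95 under 9 of 15 and Vmn2r96 under 8 of 14. Vmn2r98 passed under 9 of 15 and Vmn2r99 under 10 of 15. With 1 array left out, 0 to 2 members, 17 to 32 lower genes and 0 to 1 higher genes passed in limma, with fewer samples in each such fit. The samples of both genotypes carry replicate numbers, but deviations of same-numbered arrays from their group means correlated at only 0.0401, 0.110 and 0.0187 over genes, so the arrays were not treated as paired. With the replicate number as a block, 1 member (Vmn2r99, adjusted p = 0.0384), 22 lower genes and 0 higher genes passed in limma, where 468 higher genes had an unadjusted p under 0.05. Of the 48 lower and 2 higher genes called, the higher count was 1 with the mean of probe sets, with every probe set and with array weights, and 4 with median centring, quantile normalization and cyclic loess. The cause was not tested. Depth does not apply to arrays, and dim signal limits the size of differences measured for Vmn2r91, Vmn2r96, Vmn2r97 and Vmn2r98. The exact permutation test of pairs was run on the reported values alone.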
